A study of Mus musculus with 11 samples.

Results

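Liver of mice that had received Cre recombinase in a brainstem breathing centre was compared with liver of control mice across 2499 genes, which are all genes with a symbol among the 2500 in the liver table. The remaining entry had been turned into a calendar date by a spreadsheet. The comparison used 6 of the 11 libraries of the series, 3 control (numbered 7, 8 and 9) and 3 Cre (numbered 10, 11 and 12), each made from polyadenylated RNA. All mice, controls included, carried floxed alleles of Adcyap1r1, spelled Acypap1r1 floxed/floxed in the sample labels, and all underwent a procedure called SEFL, an abbreviation the labels do not expand. Controls received an adeno-associated virus encoding GFP (AAV-GFP) in the preBötzinger complex (preBötC), and Cre mice received AAV-Cre there. The promoter of the virus and the age and sex of the mice are not given in the labels, and no label states that each library is a separate animal. The spread behind each p-value is therefore a spread between libraries, which may be technical. Adcyap1r1 is not among the 2499 genes, and a liver level of it would be no check of a deletion made in the brain.

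Adcyap1r1 encodes PAC1, a G protein-coupled receptor for the neuropeptide PACAP, and the preBötC generates the breathing rhythm. The liver receives autonomic nerves and responds to circulating hormones, and it adjusts gluconeogenesis, amino acid breakdown, urea synthesis, fat oxidation and plasma protein secretion to feeding, fasting, stress and time of day. Hepatocytes near the portal vein carry most of urea synthesis and gluconeogenesis, while those near the central vein carry most of drug oxidation. Many liver genes also differ between male and female mice under the control of growth hormone.

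Each value is a z-score: a gene's value in 1 library minus its mean over the 6 libraries, divided by its SD over them. It states where a library lies for that gene, and it keeps no level, depth or fold change, so levels cannot be compared between genes and liver identity cannot be checked by the level of its markers. With 6 libraries a z-score cannot exceed 2.24 in size, and a single library near that limit pushes the other libraries together. Differences below are the Cre mean minus the control mean in z-score units. Where no order is given, values are listed for controls 7, 8 and 9 and then for Cre 10, 11 and 12. Groups are called non-overlapping where every Cre library lay on the same side of every control library.

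The promoters of 5 genes that recur below are printed here, each from 250 bases before to 50 bases after the annotated start, to show the sequence upstream of the genes whose groups lay furthest apart in each direction or that stood for a gene group. Lrch4 and Pin4 had the smallest unadjusted p among named genes in each direction. Cbs stands for amino acid breakdown, Btg2 for immediate early genes and Derl3 for endoplasmic reticulum quality control. Sequences are from RefSeq (GRCm38.p6), 5′ to 3′ on the strand of the gene, and capitals mark every match, on either strand, to the cAMP response element TGACGTCA, the E-box CACGTG, the CCAAT box CCAAT and the endoplasmic reticulum stress element (CCAAT, then 9 bases of any kind, then CCACG), which begins with a CCAAT box and so overlaps it.
Lrch4, chr5:137628873-137629172, plus strand: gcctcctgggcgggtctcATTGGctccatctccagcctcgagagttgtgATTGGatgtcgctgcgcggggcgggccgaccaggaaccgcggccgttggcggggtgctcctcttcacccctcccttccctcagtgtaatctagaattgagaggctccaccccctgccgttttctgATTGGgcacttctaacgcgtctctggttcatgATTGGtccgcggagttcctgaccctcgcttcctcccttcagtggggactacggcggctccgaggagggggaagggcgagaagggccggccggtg
Cbs, chr17:31637156-31637455, minus strand: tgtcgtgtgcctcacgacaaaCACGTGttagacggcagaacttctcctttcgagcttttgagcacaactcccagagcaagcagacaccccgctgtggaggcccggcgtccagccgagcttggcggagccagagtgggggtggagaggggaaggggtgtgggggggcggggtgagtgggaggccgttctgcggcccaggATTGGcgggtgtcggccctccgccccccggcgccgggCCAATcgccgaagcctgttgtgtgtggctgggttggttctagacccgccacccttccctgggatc
Btg2, chr1:134079106-134079405, minus strand: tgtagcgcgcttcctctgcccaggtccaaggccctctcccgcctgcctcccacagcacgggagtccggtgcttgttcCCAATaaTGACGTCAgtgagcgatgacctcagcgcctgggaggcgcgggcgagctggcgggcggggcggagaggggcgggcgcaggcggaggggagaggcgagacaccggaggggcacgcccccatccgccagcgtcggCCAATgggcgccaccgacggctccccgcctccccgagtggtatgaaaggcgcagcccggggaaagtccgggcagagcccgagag
Pin4, chrX:102119219-102119518, plus strand: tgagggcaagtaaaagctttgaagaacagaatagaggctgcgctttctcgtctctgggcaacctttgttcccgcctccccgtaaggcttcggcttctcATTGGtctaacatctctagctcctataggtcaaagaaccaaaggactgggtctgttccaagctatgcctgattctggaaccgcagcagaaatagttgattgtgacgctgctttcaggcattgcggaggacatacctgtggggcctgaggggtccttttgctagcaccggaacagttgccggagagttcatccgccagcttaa
Derl3, chr10:75893148-75893447, plus strand: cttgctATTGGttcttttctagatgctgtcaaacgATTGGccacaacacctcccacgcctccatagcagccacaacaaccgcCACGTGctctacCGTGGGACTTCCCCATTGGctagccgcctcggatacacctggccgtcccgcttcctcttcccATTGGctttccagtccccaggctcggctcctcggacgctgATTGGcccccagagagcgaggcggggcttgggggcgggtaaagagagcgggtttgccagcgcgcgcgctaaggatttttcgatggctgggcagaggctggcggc
The Lrch4 promoter held 4 CCAAT boxes and the Pin4 promoter held 1. The Btg2 promoter held 1 cAMP response element beside a CCAAT box, and the Cbs promoter held 1 E-box. The Derl3 promoter held 1 endoplasmic reticulum stress element, which 0.13% of all 27025 promoters of the RefSeq table hold. Promoters were found for 1676 of the 2499 genes, and 9 of these (0.537%) hold that element.

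Libraries of both groups stood apart from the rest. Control 8 had the highest of the 6 values for 1408 genes (56.3%) and the lowest for 529. Control 7 was the lowest for 765 genes (30.6%), and Cre 12 was the highest for 429. A value above 1.8, close to the limit, was reached in control 8 for 1042 genes and in Cre 12 for 114.

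**Figure D1:**
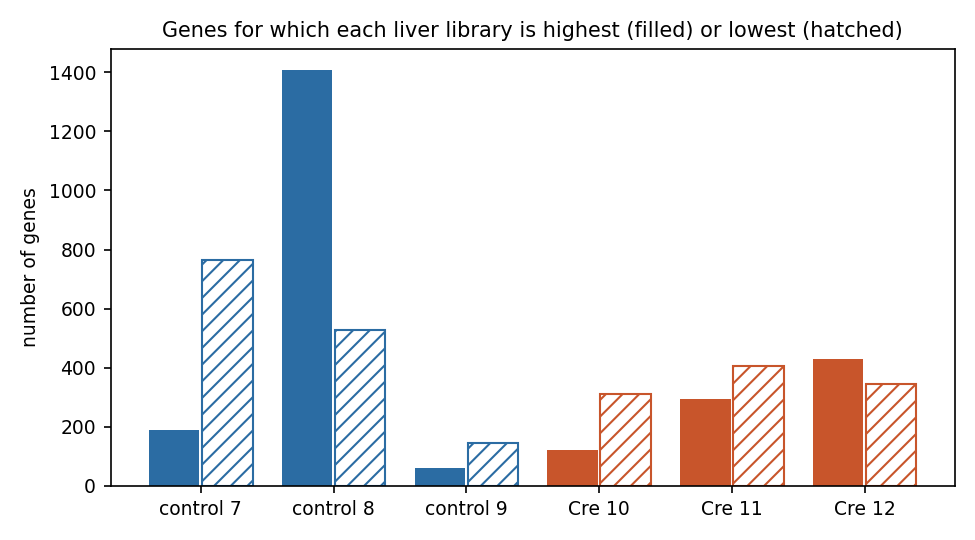
Number of the 2499 liver genes for which each library had the highest (filled bar) or the lowest (hatched bar) z-score of the 6, with controls in blue and Cre in orange; control 8 was the highest for 1408 genes, and control 9 was the highest for 61.

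The gene groups that set these libraries apart were different ones. Control 8 averaged 1.99 over 9 B and plasma cell markers of a list of 15, with 2.20 for the immunoglobulin gene Igkc, and between -0.75 and 0.16 in the other libraries. It also averaged 1.87 over 4 of 15 T and NK cell markers, 2.01 over all 13 mitochondrially encoded genes, and -1.41 over 6 of 10 hepatocyte markers, with -2.15 for Alb (albumin). Control 7 averaged 2.02 over 4 Y-linked genes and -1.76 over 35 female-biased liver genes. Cre 12 was highest for all 14 skeletal muscle markers, with a mean of 2.21 against -0.52 to -0.23 in the other libraries, and for all 6 adipocyte and all 6 brown adipocyte markers in the table, with means of 2.07 and 2.18. Mesothelial markers, those of the liver surface lining, averaged 0.76, -1.40 and -0.92 for the controls and -0.47, 0.92 and 1.12 for Cre. Their 4 members in the table (Msln, Upk3b, Upk1b and Lrrn4) thus divided the libraries across both groups. In bulk tissue, more cells of a type and more RNA per cell cannot be told apart, and z-scores do not show which markers were at 0. No acinar pancreas marker of 11 was in the table.

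The direction of the whole table followed control 8. With all libraries, 989 genes had a higher and 1510 (60.4%) a lower Cre mean, with a median difference of -0.50. Without control 8 the share lower in Cre was 44.2% and the median difference 0.11. Leaving out any other single library gave shares between 60.1% and 63.7%. Without both control 8 and Cre 12 the share was 47.4%.

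**Figure D2:**
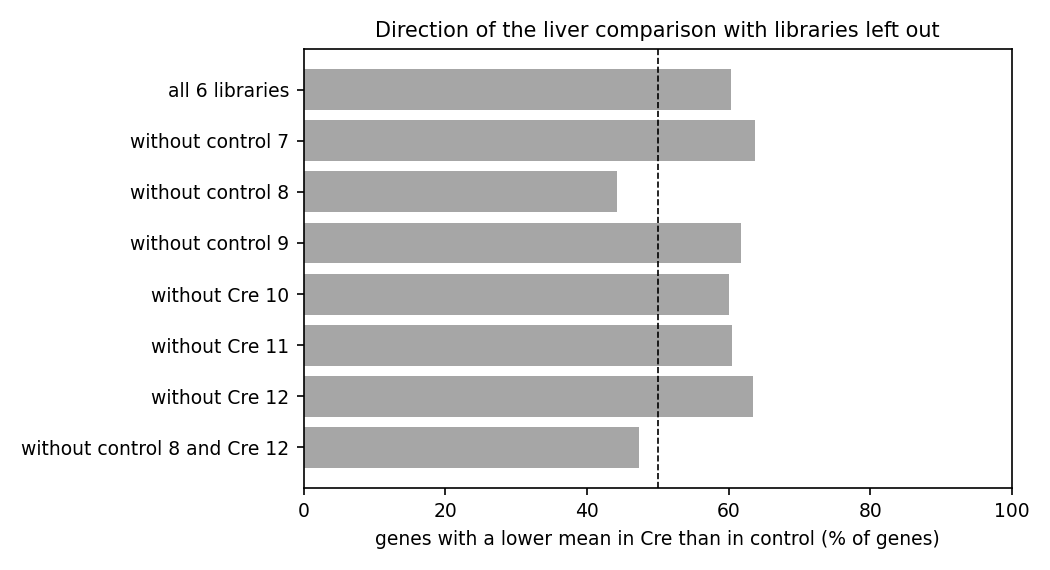
Share of genes (%) with a lower mean in Cre than in control, with all 6 libraries and with the named libraries left out, against a dashed line at an even division; the bar falls from 60.4% to 44.2% without control 8 and lies between 60.1% and 63.7% when any other single library is left out.

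No liver gene passed the test in either direction. In limma's gene-wise linear model (two-sided, Benjamini-Hochberg adjustment over all 2499 genes, threshold 0.05), 0 genes were called (0.0%), and the smallest adjusted p was 0.13. Before adjustment 144 genes (5.76%) had a p under 0.05, 81 of them higher (3.24%) and 63 lower (2.52%), and limma with moderated variance gave 117. Groups did not overlap for 565 genes (22.6%), 258 of them higher (10.3%) and 307 lower (12.3%) in Cre. For a single gene, 3 libraries against 3 cannot give an exact permutation p under 0.1. The labels do not say how the authors selected genes for the deposited table. A selection for differing between the groups would raise these shares, and its part was not tested. The title of the table carries the words liver, upregulated and Cre, yet 60.4% of its genes had a lower Cre mean.

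Control 8 also lay at the outer edge of most non-overlapping genes. It had the lowest value in 198 of the 258 genes higher in Cre and the highest in 265 (86.3%) of the 307 lower in Cre. The median z-score of control 8 was -1.84 over the former and 1.93 over the latter, while control 9 stood at -0.17 and 0.19. Control 7 stood at -0.31 and 0.1. By these medians controls 7 and 9 both lay close to the middle of the 6 libraries in these genes. Leaving out control 8 gave 718 non-overlapping genes (28.7%), 397 higher (15.9%) and 321 lower (12.8%), and leaving out control 7 gave 1176 (47.1%), 371 higher (14.8%) and 805 lower (32.2%). Leaving out Cre 12 gave 753 (30.1%), 319 higher (12.8%) and 434 lower (17.4%). Without both control 8 and Cre 12 there were 1000 (40.0%), 521 higher (20.8%) and 479 lower (19.2%). Leaving out a library can only keep or raise the number of non-overlapping genes, because fewer libraries have to be separated. The share of genes with an unadjusted limma p under 0.05 was 7.96% without control 7 (2.92% higher and 5.04% lower), 8.9% without control 8 (5.33% and 3.57%), 2.8% without Cre 12 (1.68% and 1.12%) and 6.5% without control 8 and Cre 12 (3.57% and 2.93%).

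Genes that lay apart in all libraries evenly were few. A difference of more than 1.5 that held with each library left out in turn, a limit set after the values were seen, was met by 31 genes (1.24%), 24 higher (0.96%) and 7 lower (0.28%). Of these, 18 had a symbol other than a predicted or clone name, 17 of them higher in Cre, and the 1 lower was Pin4. At a limit of 1.0 there were 139 higher (5.56%) and 130 lower (5.2%). The lower direction had nearly as many genes at the looser limit and fewer at the stricter.

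Lrch4 (chromosome 5, 137629121 to 137641099, GRCm38, plus strand), a membrane protein with leucine-rich repeats, had the smallest p of all. It was at -0.92, -1.17 and -0.89 in control and at 1.09, 0.88 and 1.01 in Cre. Both groups were tight and far apart: Cre averaged 0.99 ± 0.11 (SD, n = 3), and control averaged -0.99 ± 0.15 (SD, n = 3). The difference was 1.99 (SE 0.11), the limma adjusted p was 0.13, and the difference stayed at 1.90 or more with any 1 library left out. Abtb2 (chromosome 2, 103566310 to 103718423), an ankyrin repeat protein, was at -0.78, -1.23, -0.93, 1.17, 1.12 and 0.64, with a difference of 1.95 (SE 0.21) and a limma adjusted p of 0.483. All other named genes had an adjusted p of 0.519 or above.

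Enzymes of mitochondria and of sulphur metabolism were among the 12 genes with the smallest p higher in Cre. Pdp2 (chromosome 8, 104591451 to 104599026), a phosphatase that switches pyruvate dehydrogenase on, was at -0.52, -1.3 and -1.07 for the controls and 1.21, 0.98 and 0.70 for Cre. Sardh (chromosome 2, 27188393 to 27248337), which oxidises sarcosine in the route from choline to glycine, was at -0.45, -1.56, -0.82, 1.05, 0.94 and 0.84. Papss2 (chromosome 19, 32595790 to 32667187), which makes the sulphate donor for conjugation, was at -1.31, -1.23, -0.26, 0.70, 1.04 and 1.06. In each of them the controls spread more widely than the Cre libraries, with an SD of 0.40 in control and 0.26 in Cre for Pdp2, 0.56 and 0.11 for Sardh, and 0.59 and 0.21 for Papss2. The rest of the 12 were Lrfn3 (a synaptic adhesion protein), Ephb6 (an ephrin receptor), Capn5 (a calpain protease), Adnp (a chromatin-associated homeobox protein), Dpf3 (a subunit of BAF chromatin remodelling complexes), Kif13b (a kinesin motor) and Mmd2. Their differences ran from 1.85 for Mmd2 to 1.94 for Lrfn3. Dpf3 and Kif13b were lowest in control 7, at -1.41 and -1.37. Without control 8 and Cre 12 the differences of Dpf3, Kif13b and Abtb2 were larger, at 2.33, 2.11 and 2.0, and those of the other 9 were smaller, down to 1.37 for Mmd2.

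Among genes lower in Cre whose symbol is not a predicted or clone name, Pin4 (chromosome X, 102119447 to 102127669, plus strand), a peptidyl-prolyl isomerase, had the smallest p. It was at 0.90, 1.36 and 0.59 for the controls and -0.81, -0.68 and -1.36 in Cre, a difference of -1.90 (SE 0.31, limma adjusted p 0.623). Its groups were separated by 1.27 between the nearest libraries. Derl3 (chromosome 10, 75893413 to 75895941), which takes part in removing misfolded proteins from the endoplasmic reticulum, was at 1.5, 0.33, 0.85, -0.98, -0.35 and -1.36. Tsc22d1 (chromosome 14, 76414961 to 76507765), a transcriptional regulator, was at 1.5, 0.83, 0.31, -0.25, -1.08 and -1.32. Coq10b (chromosome 1, 55052770 to 55072702), a coenzyme Q-binding protein of mitochondria, was at 0.97, 1.06, 0.59, -0.95, -1.64 and -0.04, and Cre 12 lay close to the controls. The other 8 were Rwdd2a, Pi15, Rbmxl2, Mphosph8, Rslcan18, Pydc3, Grk1 and Rbm25, each highest in control 8 at 1.5 to 1.85. They include nuclear proteins (Rbm25, a splicing factor, and Mphosph8, a reader of methylated histone H3) and genes best known from other tissues (Grk1, the rhodopsin kinase of photoreceptors, and Rbmxl2, a testis RNA-binding protein), and z-scores do not show whether such genes had low counts. Pydc3 matched no single gene of the annotation.

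**Figure D3:**
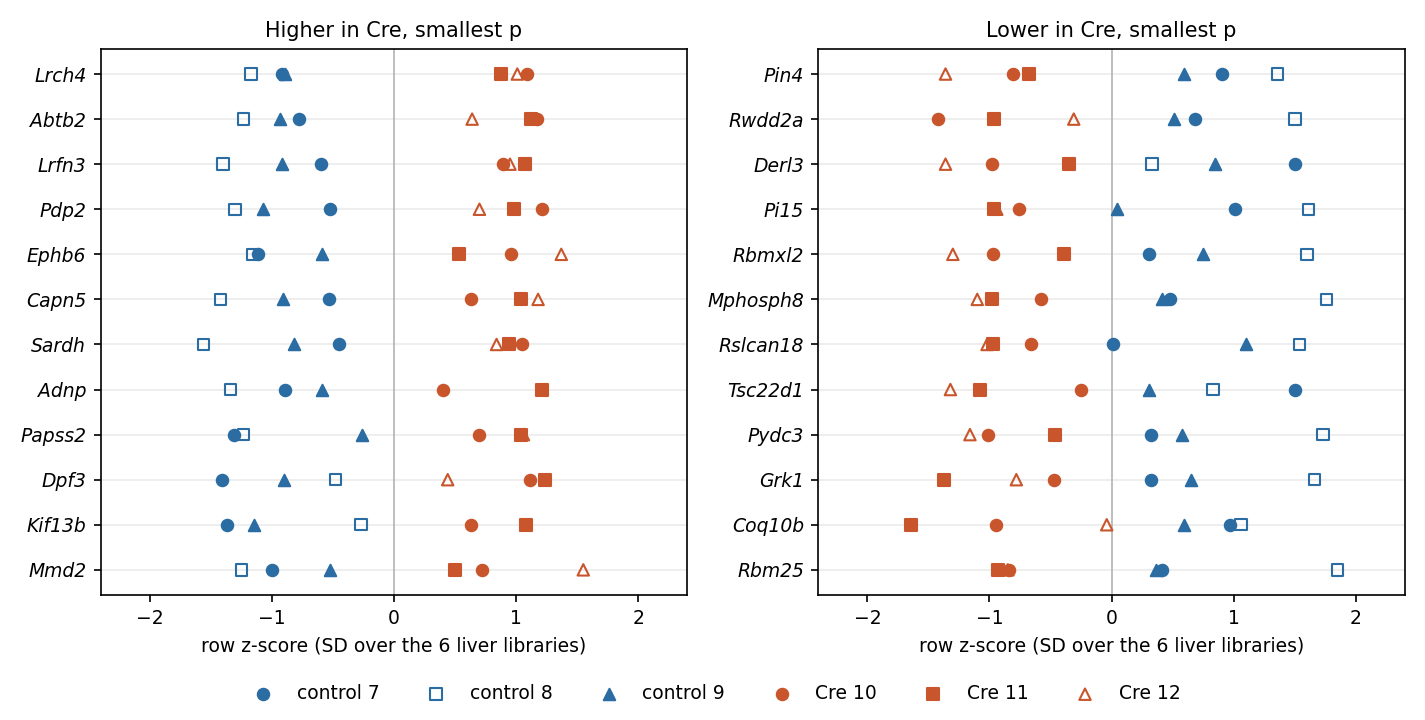
Z-scores of the 24 named genes in each library (blue, control; orange, Cre; open symbols, control 8 and Cre 12); Lrch4 shows the tightest groups, with controls at -0.92, -1.17 and -0.89 and Cre libraries at 1.09, 0.88 and 1.01.

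Enzymes that break down amino acids or make urea lay higher in Cre: all 14 that the table held, of a list of 60, had a higher Cre mean, and in 9 the groups did not overlap. Over all genes 989 of 2499 had a higher Cre mean, and 10.3% were higher without overlap. No member passed the adjusted test. The median difference was 1.61, against -0.50 over all genes. By library the list averaged -0.13, -1.39 and -0.61 for the controls and 0.54, 0.67 and 0.93 for Cre, so every Cre library lay above every control, with control 7 close to 0. Without control 8 and Cre 12 all 14 remained higher, 11 of them without overlap where 20.8% of all genes were, and the median was 0.95. The 9 without overlap in all libraries could not change direction or overlap there.

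The list spans several routes. Cps1, which starts the urea cycle, was at -0.23, -1.89, -0.39, 0.65, 1.12 and 0.74, and Ass1, which joins citrulline to aspartate, was at 0.04, -1.70, -0.73, 0.12, 1.07 and 1.19. Control 7 and Cre 10 were nearly level for Ass1. Gls2, the liver glutaminase, was at -0.22, -1.21, -1.26, 0.44, 0.82 and 1.43, and its difference was at least 1.52 whichever library was left out. Hal, which breaks down histidine, was at -0.36, -2.00, 0.05, 0.59, 0.71 and 1.01. Chosen after their values were seen, Cbs (transsulphuration) was at -0.26, -1.85, -0.50, 0.84, 0.91 and 0.85, and Agxt (glyoxylate removal) was at -0.57, -1.69, -0.48, 1.17, 0.76 and 0.81. For both, the Cre libraries lay within a narrow band above all controls. Gldc (glycine cleavage), Aldh4a1 (proline breakdown) and Sardh, described above, completed the 9. In Mut and Pcca, enzymes of propionate use, control 8 was at -2.18 and -2.20, and without control 8 and Cre 12 the differences were 0.51 and 0.02. Sds was highest in control 8, at 1.64. Hepatocyte markers, which share Cps1 and Tat with this list, were also lowest in control 8 (mean -1.41), and their part in the result was not tested. Without control 8 the median of the 14 was 1.14.

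Periportal genes, a list that shares Cps1, Ass1, Gls2, Hal, Sds, Gldc and Agxt with the one above, had 16 of 18 members higher in Cre, 11 without overlap where 10.3% of all genes were, and a median of 1.42. Beyond those enzymes, Ctsc (cathepsin C), Pigr (the receptor that carries immunoglobulins into bile) and Aldh1b1 had non-overlapping groups, and all were chosen after their values were seen. Pericentral genes, the opposite zone, had 3 of 6 members higher and none without overlap, with a median of -0.15. The lists are of unequal size, and their difference was not tested. The periportal mean was -1.39 in control 8 and -0.25 and -0.10 in the other controls. Without control 8 and Cre 12 the periportal median was 0.73.

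**Figure D4:**
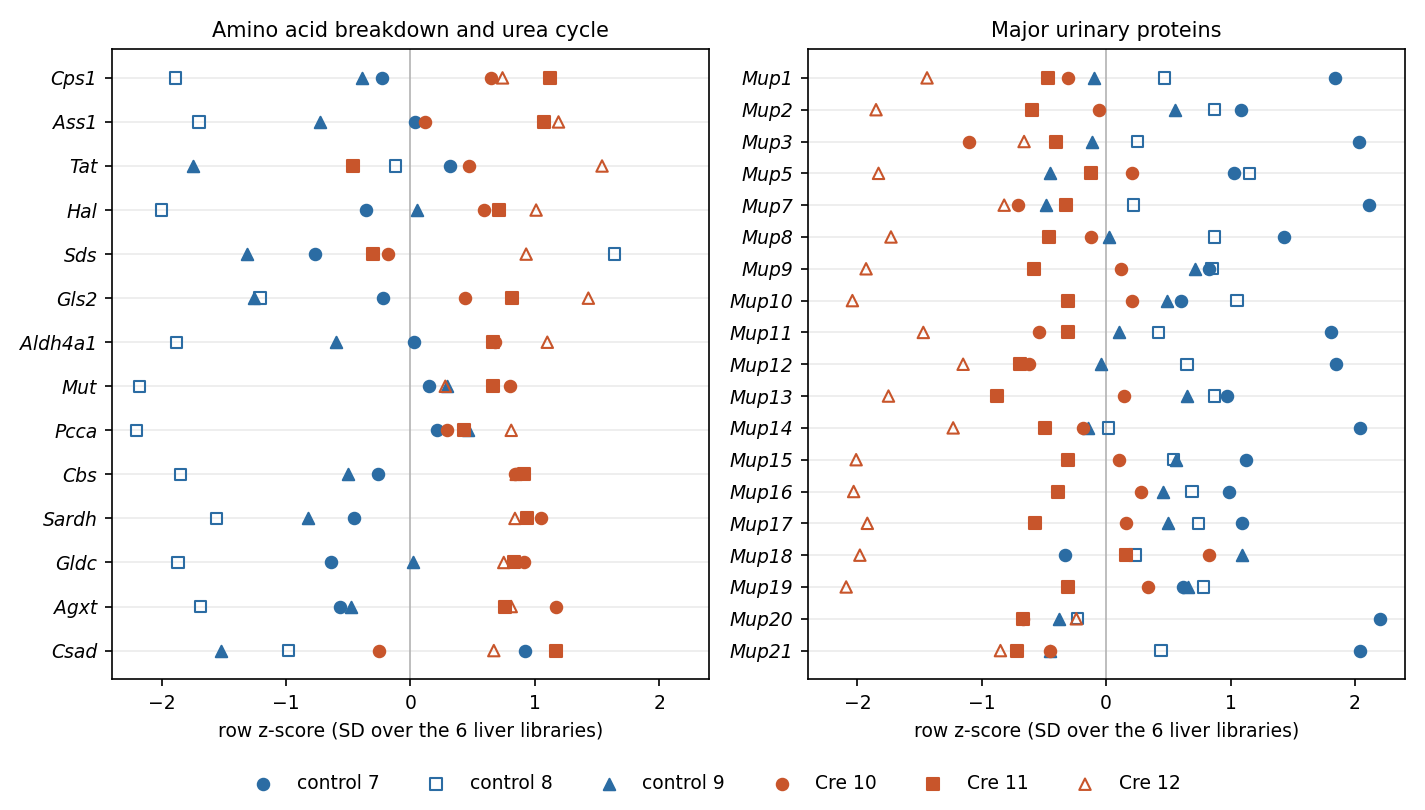
Z-scores by library for the 14 amino acid and urea cycle genes and the 19 Mup genes in the table (blue, control; orange, Cre; open symbols, control 8 and Cre 12); the amino acid genes have a higher Cre mean in 14 of 14 and the Mup genes in 0 of 19.

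Genes of glucose and mitochondrial fuel use had mostly higher Cre means. Beside the counts that follow, 10.3% of all genes were higher without overlap. Of 6 gluconeogenesis and glycogen genes 5 were higher, 2 without overlap (Fbp1 and Pcx), with a median of 0.94. Among 5 genes of pyruvate dehydrogenase and the TCA cycle all were higher, but Pdp2 alone had non-overlapping groups, and Pdk4, the kinase that switches the same complex off, was at 2.19 in Cre 12 and between -0.84 and -0.24 elsewhere. Pdp2 therefore separated the groups where Pdk4 marked 1 library. The median of the 5 genes was 1.24, and 0.34 without control 8 and Cre 12. All 6 fatty acid oxidation genes were higher, with non-overlapping groups in Hadha (the trifunctional protein) and Acad11, at -2.15 and -2.17 in control 8. Their median was 1.21, and 0.41 without control 8 and Cre 12. Glycolysis genes had 8 of 13 higher with a median of 0.32, and -0.23 without Cre 12, where muscle markers were highest. Slc2a1, the glucose carrier GLUT1, was at -0.33, -0.71, -1.56, 0.96, 0.24 and 1.40, without overlap, and Pfkl, the liver phosphofructokinase, was at -0.06, -1.74, -0.26, 0.18, 0.20 and 1.68. Pfkfb3, chosen after its values were seen, had the largest difference in the opposite direction, -1.54, and its groups overlapped through Cre 12 at 0.42.

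Cholesterol synthesis and uptake had a higher Cre mean in 19 of 19 genes, with a median of 0.96. Groups did not overlap in 3, where 10.3% of all genes were higher without overlap. Cre 11 was the highest library for 18 of them and Cre 12 the lowest for 8, so the Cre libraries held both ends. Srebf2, the transcription factor that drives the pathway, was at -0.64, -1.53, -0.37, 1.06, 1.41 and 0.07. Scap, the sterol-sensing protein that escorts it, was at -0.37, -1.91, 0.10, 0.68, 1.3 and 0.21. Srebf2 had the wider gap between the lowest Cre library and the highest control. Insig1, which retains Scap in the endoplasmic reticulum, overlapped through Cre 10 at -0.12. Without Cre 12 there were 13 members without overlap, where 12.8% of all genes were higher without overlap, and the median was 1.36. Without Cre 11 a higher Cre mean remained in 14 of 19, with a median of 0.50, and without control 8 in 14 of 19, with a median of 0.56. Lipogenesis had 12 of 17 members higher and PPARalpha targets 11 of 13, and neither had a member without overlap. Their medians were 0.98 and 0.88, and 0.16 and 0.68 without control 8 and Cre 12.

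Lipoprotein and lipase genes had a higher Cre mean in 8 of 10, with a median of 0.73, which was 0.23 without control 8. Without overlap 2 of the 10 were higher and 1 lower, where 10.3% and 12.3% of all genes were. Apoa4 and Angptl8, a secreted inhibitor of lipoprotein lipase activity, were higher without overlap, and Apoc1 was lower without overlap, at 2.08 in control 8. Angptl8 was at -0.97, -0.09, -1.52, 0.40, 1.41 and 0.77, and its difference grew from 1.72 to 2.15 without control 8 and Cre 12. Bile acid genes had 3 of 8 higher, and 1 of 8 lay without overlap in each direction, near the shares of all genes. Abcb11, the bile salt export pump, was higher without overlap, Slco1a1, an organic anion carrier, was lower without overlap, and Cyp7a1, the rate-limiting enzyme of bile acid synthesis, was at -0.85, 1.88, -0.34, 0.75, -0.68 and -0.76, with overlapping groups.

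Hepatokines and genes of the growth factor axis had a higher Cre mean in 12 of 12, with a median of 0.79. In 2 the groups did not overlap, where 10.3% of all genes were higher without overlap. Gdf15, a stress-responsive secreted factor, was at -0.62, -0.02, -1.84, 0.59, 0.75 and 1.14. The other was Angptl8. Prlr, the prolactin receptor, was at -2.20 in control 7 and between 0.24 and 0.78 in every other library. Control 7 was the lowest library for 7 of the 12, with a list mean of -1.3, and without it 9 of 12 remained higher with a median of 0.30.

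Immediate early and cAMP-related genes had 14 of 16 members higher, with a median of 0.85. Of the 16, 2 were higher without overlap, where 10.3% of all genes were. Btg2, an antiproliferative early gene, was at -1.25, -0.41, -1.04, 0.24, 1.46 and 1.0, and Junb, an AP-1 subunit, was at -1.45, 0.08, -1.19, 0.63, 1.32 and 0.60. Both kept a difference of at least 1.40 with any library left out. Jun was at 1.83 in Cre 12 and overlapped through Cre 10 at -0.45, and Jund was at -1.96 in control 8. Cre 12 was the highest library for 8 of the 16, and without it 10 of 16 were higher with a median of 0.29. Btg2 also belongs to the p53 list, where it and Bbc3, a cell death gene, were the 2 of 9 members without overlap, against the same 10.3%.

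Clock genes lay in both directions, with 5 of 7 lower in Cre. Per2, a repressor of the clock, was at 0.18, 1.93, 0.27, -0.92, -1.08 and -0.37. It was the 1 member of 7 with non-overlapping groups, near the 12.3% of all genes that were lower without overlap. Per1 and Per3 had differences of -1.13 and -1.28, with Cre 12 among the controls at 0.56 and 0.07. Arntl, the activator BMAL1, whose rhythm runs opposite to that of the Per genes in mouse liver, had a difference of 1.48, at -1.37, -0.95, 0.10, 0.48, 1.73 and 0.02. Chosen after their values were seen, Ciart and Usp2 had differences of -1.49 and -1.26. The median of the list was -1.26, and -0.62 without control 8, which was the highest library for 4 of the 7. Without Cre 12 the median was -1.67, and 5 members were lower and 1 higher without overlap, against 17.4% and 12.8% of all genes. The time of day at which each liver was taken is not given in the labels, and its part was not tested.

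Endoplasmic reticulum stress and quality control genes had a higher Cre mean in 6 of 11 members and a lower one in 5, Derl3 among them, with a median of 0.16. The direction of the list depended on single libraries: 8 of 11 were lower without control 8, with a median of -0.42, and 8 of 11 without Cre 11, with a median of -0.63. Hspa5, the main chaperone of the compartment, was at -0.15, -1.38, 0.94, -0.27, 1.61 and -0.74, and Hyou1 followed the same order of extremes within Cre, with 1.75 in Cre 11 and -1.21 in Cre 12. Most of the 11 (7) were highest in Cre 11, and 5 were lowest in Cre 12, and these were also the extreme Cre libraries for the sterol genes. For Derl3 the difference was -1.48 without control 7 and further below 0 without any other single library.

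Secreted plasma proteins showed small and mixed differences. Beside their counts, 10.3% of all genes were higher without overlap. Acute phase genes had 12 of 18 members higher with a median of 0.39, which was -0.19 without control 7. Itih4 and Serpina3m were higher without overlap, with -1.98 and -2.03 in control 8, and Saa1, a major acute phase protein of mice, was at 0.10, 0.88, -0.67, 1.61, -1.36 and -0.56. Complement and coagulation genes had 6 of 11 higher and 3 without overlap (C3, Masp1 and Serpind1). C3, the central complement protein, was at -0.86, -1.79, 0.27, 0.76, 1.03 and 0.59. C6, a part of the membrane attack complex, was at 2.11 in control 7 and at 0.24 or below elsewhere. Interferon-stimulated genes averaged 1.36 in control 8, had 4 of 13 members higher and none without overlap, and without control 8 and Cre 12 had 10 of 13 higher.

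Matrix genes without overlap lay in both directions, where 10.3% of all genes were higher and 12.3% lower without overlap. Control 8 was the lowest library for 8 of the 17 in the table. Of 17 members 14 had a higher Cre mean, 4 without overlap (Fn1, Lamb1, Lamc1 and Mmp14), and the 3 lower members, Col5a3, Col27a1 and Lama3, were all without overlap. Fn1, the fibronectin gene, was at -0.56, -1.92, 0.08, 0.72, 1.05 and 0.63. Mmp14, a membrane-bound matrix protease chosen after its values were seen, was at -0.90, -1.66, -0.13, 0.83, 0.86 and 1.0. Col5a3 was at 1.36, 1.3, -0.13, -0.72, -1.27 and -0.54, and Col27a1, a fibrillar collagen like it, was at 1.31, 1.41, -0.18, -0.85, -1.08 and -0.61. In both collagens control 9 lay nearer to the Cre libraries than to the other controls. Lama3 was highest in control 7, at 1.88.

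Control 7 stood apart in genes that differ between the sexes. Female-biased genes were higher in 33 of 35, with 11 without overlap and a median of 1.09, which was 0.32 without control 7. Male-biased genes were lower in 32 of 32, with 11 without overlap and a median of -1.22, which was -0.60 without control 7. Over all genes 10.3% were higher and 12.3% lower without overlap. Without control 7 those shares were 14.8% and 32.2%, and the median difference over all genes moved from -0.5 to -0.93. Without control 7 the female-biased and male-biased medians thus both lay above that of all genes. In that setting 11 female-biased genes were higher and 2 lower without overlap, and 11 male-biased genes were lower. Control 7 was the highest library for 29 of these 32 and Cre 12 the lowest for 20. Y-linked genes had 4 of 4 lower and 2 without overlap, Kdm5d at 1.63, 1.16, -0.56, -0.87, -0.71 and -0.65 and Uty at 2.02, 0.36, -0.14, -0.52, -0.94 and -0.78. Ddx3y, at 2.23 in control 7, lay between -0.55 and -0.38 in all other libraries. Many cytochrome P450 genes outside lipid pathways are sex-biased in mice, and control 7 was the lowest library for 17 of 28. Of the 28, 21 had a higher Cre mean, with a median of 0.91, which was 0.17 without control 7. Without overlap 6 were higher and 1 (Cyp2d9) lower, against 10.3% and 12.3% of all genes. Cyp3a16, chosen after its values were seen, had controls close together, at -0.88, -0.70 and -0.67 in control and 1.24, 1.57 and -0.55 in Cre, with Cre 12 just above the controls. The labels give no sex, so virus and sex cannot be told apart in values that control 7 sets.

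The major urinary proteins (Mup), pheromone carriers that male liver secretes in large amounts, had 19 members in the table, and 8 of them are also in the male-biased list. All 19 had a lower Cre mean, with a median of -1.44, and 15 were without overlap, where 12.3% of all genes were lower without overlap. Their mean was 1.33, 0.57 and 0.19 in control and -0.13, -0.44 and -1.53 in Cre, so every control lay above every Cre library, with the widest gaps at control 7 and Cre 12. Control 7 was the highest library for 14 and Cre 12 the lowest for 17. Mup1 was at 1.84, 0.47, -0.10, -0.31, -0.47 and -1.44, and Mup2 at 1.08, 0.87, 0.55, -0.06, -0.60 and -1.85. The median was -1.12 without control 7 and -1.06 without Cre 12, where the medians over all genes were -0.93 and -0.53. In these settings 15 and 16 members had non-overlapping groups, where 32.2% and 17.4% of all genes were lower without overlap. Leaving out a library could not take these counts below 15. Mup genes are near-identical copies in one cluster on chromosome 4, so reads may be shared among them and the 19 are not independent. Chromosome 4 held 34 of the 307 genes lower without overlap among its 153 genes in the table (22.2%), against 12.3% of all genes, and 15 of the 34 were Mup genes.

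Conjugating enzymes had 16 of 27 members higher with a median of 0.35, which was 0.07 without Cre 12. Without overlap 3 were higher and 1 lower, against 10.3% and 12.3% of all genes. Nqo1, a quinone reductase, was at -1.66, 0.06, -0.97, 1.10, 0.83 and 0.63, and Akr1b7, an aldo-keto reductase, was at -1.19, -1.35, 0.15, 0.59, 0.28 and 1.52. Nqo1 differed by 1.71, and by 2.28 without control 8 and Cre 12. Gstp2, a glutathione transferase that is also in the male-biased list, was lower without overlap and had 2.16 in control 7.

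Genes of the mitochondrial genome were lower in 13 of 13, with 7 without overlap, where 60.4% of all genes had a lower Cre mean and 12.3% were lower without overlap. Control 8 was the highest library for each of the 13. The median was -1.38. Without control 8, 11 of 13 were lower, with a median of -0.70. The 7 non-overlapping genes could not overlap with fewer libraries, and no other gene joined them without control 8. Without control 7 all 13 were lower without overlap, where 32.2% of all genes were. Their median was then -1.9, against -0.93 over all genes. The 2 cytosolic ribosomal genes present, Rps12 (higher) and Rpl27 (lower), were both without overlap, and for Rps12 reads may be shared with processed copies. Thermogenic genes had 10 of 12 higher with a list mean of 1.73 in Cre 12. Without Cre 12 it was 1 of 12.

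**Figure D5:**
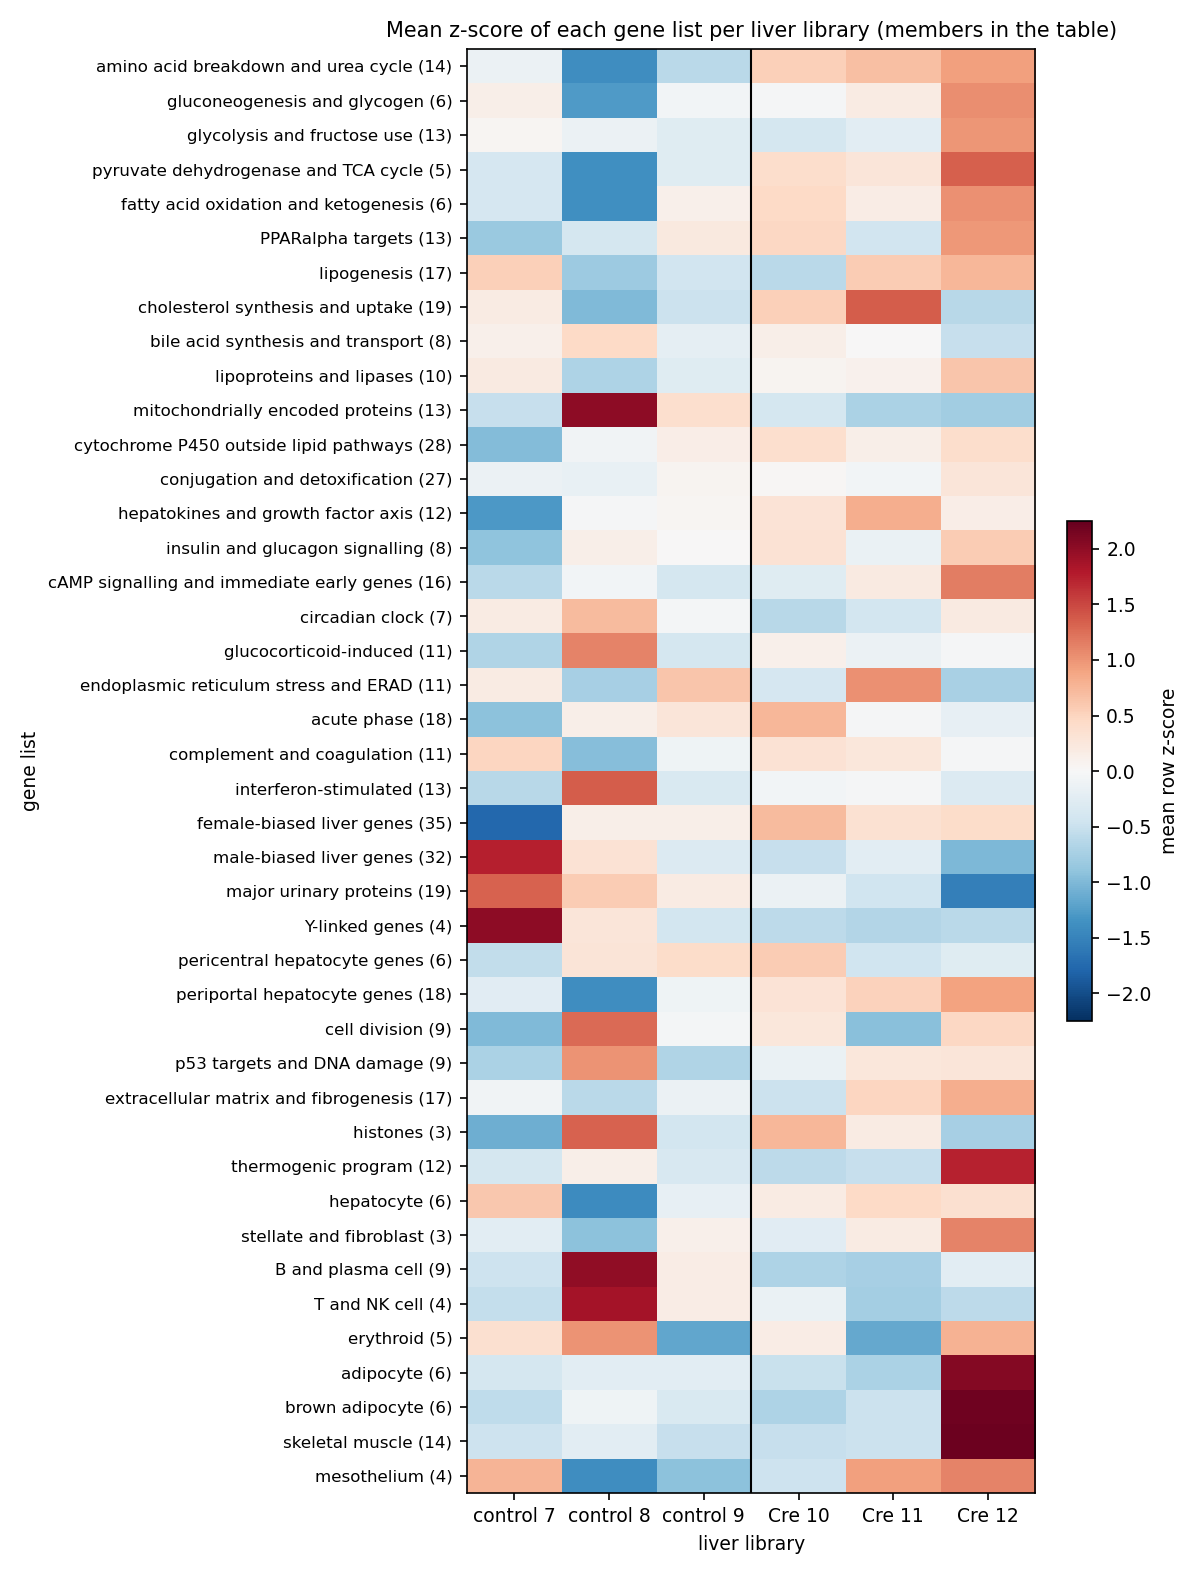
Mean z-score of gene lists in each of the 6 libraries; skeletal muscle markers average 2.21 in Cre 12, B and plasma cell markers 1.99 in control 8, Y-linked genes 2.02 in control 7, and amino acid genes -1.39 in control 8 and 0.93 in Cre 12.

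The kinds of gene differed between directions. Pseudogenes made up 40 of 294 annotated genes lower without overlap (13.6%), 11 of 253 higher without overlap (4.35%) and 7.08% of all annotated genes in the table. Predicted or clone symbols made up 74 of the 307 lower (24.1%) and 22 of the 258 higher (8.53%), against 13.5% of all genes in the table. Zinc finger genes named Zfp were lower in 40 of 50, with a median of -0.71, and 46 of them were highest in control 8. Without control 8 their median was -0.03. Genes named Ccdc were lower in 15 of 19, with 17 highest in control 8. Solute carriers had a higher Cre mean in 35 of 66, with 9 higher without overlap (among them Slc2a1 and the bicarbonate carrier Slc4a4) and 4 lower without overlap (among them the cystine carrier Slc7a11 and the mitochondrial iron carrier Slc25a37), where 10.3% and 12.3% of all genes lay without overlap. These families were grouped by symbol after the values were seen.

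Promoter motifs were spread over both directions. A cAMP response element was found in 6 of 178 promoters of genes higher without overlap (3.37%), in 8 of 186 of genes lower without overlap (4.3%) in 2.57% of promoters of the table's genes and in 1.88% of all promoters. In the same order, an E-box was found in 8.99%, 7.53%, 7.94% and 7.23%, and a CCAAT box in 38.2%, 43.5%, 38.6% and 37.9%. Promoters of the table's genes had a median GC content of 58.7%, against 52.7% over all promoters. The 10 amino acid genes with a promoter held a CCAAT box in 7 and an E-box in 2 (Ass1 and Cbs). The endoplasmic reticulum stress element occurred in 1 promoter of each direction, Acnat2 and Derl3. A match describes letters in this window and not a bound site.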

How the data were processed

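The liver table holds 1 value per gene and library for 2500 genes. It was deposited by the authors as a score: from the values, all 2499 named genes sum to 0 over the 6 libraries and their squares sum to 6, within 1e-06, so the score is a row z-score. Tools named in the submitters' processing notes are DESeq2 1.20.0 and TopHat 1.3.3, and builds named there are GRCm38, mm10 and mm9, none with its role. Depth and any log transformation are not given in the sources used here, and neither is the selection of genes beyond the words of the table's title. Both directional and non-directional library preparation are described per the labels' protocols, so reads of a gene and of a partner on the other strand may be mixed. The second table of the series, brown fat, was not analysed here.

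Libraries were grouped by their titles. Cre was compared with control by limma 3.58.1 (R 4.3.3), a linear model per gene on z-scores, two-sided, without variance moderation since every gene has the same total variance after scaling, with Benjamini-Hochberg adjustment over 2499 genes. On simulated tables with 200 of 2499 genes changed, this model found 0.2% of the changed genes at a shift of 3 within-group SD, 70.4% at 6 and 100% at 12. The moderated model recovered 0% in each, so its calls decide nothing. Genes with a residual SD under 1e-06 were not tested. Alternatives were moderation, ranks, the 2438 genes without ties, each library left out and control 8 and Cre 12 left out together. The members and the 52 gene lists were chosen with earlier results of these data known. Lists are described by counts and medians, with no test. Named genes were the 12 per direction with the smallest p among non-overlapping genes without a predicted or clone symbol. To these were added up to 4 members per list, non-overlapping ones first, and the 3 most extreme members where a statement concerns 1 library. Positions are from GENCODE M21 (GRCm38), in which 2415 symbols matched a single gene. Summaries and figures used Python 3.11.15, pandas 2.3.3 and matplotlib 3.10.9.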

Additional observations from a re-analysis of the deposited data

How the results depend on the processing

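Under every alternative 0 genes had an adjusted limma p under 0.05, and the smallest adjusted p ranged from 0.0548 (without control 7) to 0.742 (without Cre 10). The number at an unadjusted p under 0.05 ran from 69 to 222 as each library was left out. It was 565 on ranks, where by construction every non-overlapping gene passes. Non-overlapping genes ran from 697 to 1176 with 1 library left out and were 1000 (40.0%) without control 8 and Cre 12. Leaving out libraries can only keep or raise this number, because fewer have to be separated. The share of genes lower in Cre ran from 44.2% to 63.7% and was 47.4% without control 8 and Cre 12. All 240 values of named genes under alternatives kept their direction. This was fixed in advance, because these genes were selected for non-overlapping groups, whose direction no alternative can change. Of the list medians 306 moved by less than the spread between libraries and 30 by more, 13 of these without control 8 and Cre 12. The 306 include medians that changed sign. Glycolysis went from 0.32 to -0.23 without Cre 12, and interferon-stimulated genes from -0.61 to 0.07 without control 8. No paired analysis was possible because library numbers differ between the groups. Z-scores carry no depth, so low counts could not be filtered. In the simulated tables shifts of 3 within-group SD were rarely detectable with 3 libraries a group.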
